A study of Mus musculus with 4 samples.

Results

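Fibroblast-gated barcodes of mouse skin wounds were described 1 day after injury. A barcode marks the RNA captured in 1 droplet, ideally that of 1 nucleus, and a UMI marks 1 captured molecule. A wounded barcode entered this group with at least 100 genes, at most 5% mitochondrial UMIs, a UMI of at least 2 of 10 gate genes (Pdgfra, Pdgfrb, Adamts2, Adamts5, Sparc, Cyp7b1, Col1a1, Col1a2, Col3a1 and Dcn) and fewer than 2 UMIs of Tnfaip6, a hyaluronan-binding protein. The rule left 1792 members among 20696 wounded barcodes that met the limits on genes and mitochondrial UMIs, and among 39466 barcodes deposited for all libraries. Wounded replicate 1 gave 500 members of 4621 (10.8%, 95% Wilson interval 9.96 to 11.7%), and wounded replicate 2 gave 1292 of 16075 (8.04%, 7.63 to 8.47%). The members were thus selected on their UMIs of these genes, so the gate genes and Tnfaip6 are described only. They stayed in the count models but were left out of every adjustment and every count of genes.

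All 4 animals were 8 weeks old and wild type, of the inbred strain C57BL/6. The wounded group was back skin of 2 mice, taken 1 day after an excision through the full depth of the skin, and the unwounded group was intact back skin of 2 other mice. Each mouse gave 1 library of single nuclei prepared with the 10x Genomics 3' chemistry, and the labels call the cells mixed skin cells, with no sorting. Within the wounds, the members were set against 544 Tnfaip6-high barcodes (at least 2 UMIs of Tnfaip6) and against the 18360 other barcodes, which held fewer than 2 gate genes. Of the Tnfaip6-high barcodes, 113 of 206 in wounded replicate 1 and 157 of 338 in wounded replicate 2 also held at least 2 gate genes. Only their Tnfaip6 UMIs kept those out of the members. The members were also set against the unwounded barcodes that pass the same gate.

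Dermal fibroblasts make the collagens, proteoglycans and elastic microfibrils of the dermis and remodel them with secreted proteases. In injured skin they sense platelet-derived growth factor, transforming growth factor beta and interleukin 1, release chemokines that draw neutrophils and monocytes, and lay down a provisional matrix before some become contractile myofibroblasts. In intact skin they fall into papillary, reticular, adventitial and dermal papilla subsets with different adhesion and signalling genes.

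The members were shallow. They held 226654 UMIs in wounded replicate 1 and 388366 in wounded replicate 2, with medians of 267.5 and 223 UMIs per barcode, against medians of 911 and 480 in the gated unwounded barcodes (8348043 and 6548594 UMIs). A count of 0 therefore allowed up to 13.2 and 7.72 CPM (a gene's UMIs scaled to a fixed total per profile) in the members and 0.359 and 0.458 CPM in the gated unwounded barcodes. Malat1, a nuclear RNA seen in 100% of gated unwounded barcodes, had a UMI in 60.2% and 71.1% of members and in 21.0% and 31.6% of other wounded barcodes. Olfactory and vomeronasal receptor genes, used here as a gauge of background on the assumption that skin nuclei transcribe them little, carried UMIs in the wounds. In 3 length classes of these 1468 genes (median 3.58, 6.35 and 11.4 kb) the members held 0.947, 3.06 and 6.64 CPM per gene in replicate 1 and 1.03, 2.62 and 6.49 CPM in replicate 2. Per kb this was 0.304, 0.475 and 0.399 CPM and 0.330, 0.406 and 0.389 CPM, so the density was not the same in each class. A background of the pooled density, assumed for all genes, would fill 50.5% and 48.1% of the members' UMIs. The same share was 33.0% and 45.0% in Tnfaip6-high barcodes, 67.4% and 60.4% in other wounded barcodes, and 0.899% and 1.29% in gated unwounded barcodes. The level that this density gives a gene of a certain length is called its length-expected level. No gated barcode sequence was shared between the wounded libraries, other pairs of libraries shared 0 to 26 gated barcode sequences, and the members' counts differed between those libraries beyond sampling noise (chi-square per gene 1.64 over 6458 genes).

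Cyp7b1, Adamts2 and Pdgfrb were the gate genes with most UMIs in both of the members' libraries. Cyp7b1, an oxysterol hydroxylase, had a UMI in 66.0% and 63.5% of members, Adamts2, the procollagen N-proteinase, in 59.8% and 56.5%, and Pdgfrb, a receptor of platelet-derived growth factor, in 44.2% and 42.4%. The commonest pair was Adamts2 with Cyp7b1, held by 191 and 433 members. Exactly 2 gate genes were held by 299 and 909 members, 3 by 126 and 275, and no member held more than 6. Members with no collagen or Dcn UMI numbered 316 and 862, those with UMIs of both groups 178 and 408, and those with collagen or Dcn UMIs alone 6 and 22. Col1a1, the main fibrillar collagen chain of dermis, stood at 225 and 363 CPM in the members, against 2794 and 3677 CPM in the gated unwounded barcodes.

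The gate did not select in the same way in intact skin. It was passed by 94.8% and 91.1% of unwounded barcodes, and, among barcodes of at least 150 UMIs thinned to that number, by 7.67% and 6.84% of wounded barcodes, against 46.5% and 47.5% of unwounded barcodes. Thinning left out 97 and 6137 wounded barcodes that were shallower, 4 and 232 of them members, and no unwounded barcode. Markers of skeletal muscle, keratinocytes, macrophages and endothelium were also present in that unwounded set, so the comparison with it sets members against a mixture of skin nuclei rather than against fibroblasts alone. The 8 skeletal muscle markers summed to 441 and 417 CPM in the members, against 5880 and 4586 CPM in the gated unwounded barcodes. For keratinocyte markers the sums were 569 and 958 CPM in the members, against 434 and 660 CPM. For endothelial markers they were 565 and 484 CPM, against 174 and 211 CPM. For macrophage and monocyte markers they were 613 and 515 CPM, against 524 and 563 CPM. The members thus held markers of other cell types too. In both comparisons, fewer nuclei of a type and less RNA per nucleus cannot be told apart.

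Of 17 tested fibroblast markers that the gate did not use, 4 were higher in the members than in other wounded barcodes, none was lower and 13 did not pass. Over all genes tested in this comparison, 2.82% were higher and 0.0420% lower, so the lack of lower markers says little. The 18 markers outside the gate summed to 2431 and 2320 CPM in the members, 3118 and 2545 CPM in Tnfaip6-high barcodes and 1456 and 1459 CPM in other wounded barcodes, while they summed to 5798 and 5445 CPM in gated unwounded barcodes. Fbn1 alone made up 803 and 837 CPM of the sum in the members, against 248 and 235 CPM in other wounded barcodes. Mfap4 alone was at 0 in the members of wounded replicate 1, and no marker was at 0 in those of wounded replicate 2. At least 2 of these markers were held by 21.4% and 11.7% of members, against 8.45% and 3.73% of other wounded barcodes. At 150 UMIs per barcode these shares were 5.44% and 4.53% of members, 1.72% and 1.52% of other wounded barcodes, and 18.6% and 15.7% of gated unwounded barcodes.

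Markers of other cell types were tested one by one. Between members and other wounded barcodes, none of the tested markers of pericytes, keratinocytes, endothelium, macrophages, neutrophils, skeletal muscle, adipocytes, Schwann cells, T cells or melanocytes passed the test in either direction. In that order 7, 6, 8, 6, 3, 6, 3, 6, 3 and 5 markers were tested. Only 2.86% of all tested genes differed in this comparison, so the lack of calls says little about these cell types. The list of pericytes and smooth muscle, cells that also carry Pdgfrb, summed to 221 and 258 CPM in the members, against 304 and 287 CPM in other wounded barcodes, and its 7 tested genes had a median log2 fold change of -0.14. Keratinocyte markers summed to 569 and 958 CPM in the members, against 1073 and 1307 CPM in other wounded barcodes, and all 6 tested had a negative fold change. At 150 UMIs per barcode, at least 2 keratinocyte markers were held by 0% and 1.13% of members (95% Wilson intervals 0 to 0.769% and 0.649 to 1.97%). The shares in other wounded barcodes were 2.64% and 2.40% (2.18 to 3.20% and 2.10 to 2.75%). These intervals cover counting error over barcodes, which are not replicates, and the shares were not tested. Macrophage and monocyte markers summed to 613 and 515 CPM, against 632 and 621 CPM. The part of these cell types in the results was not tested.

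**Figure D1:**
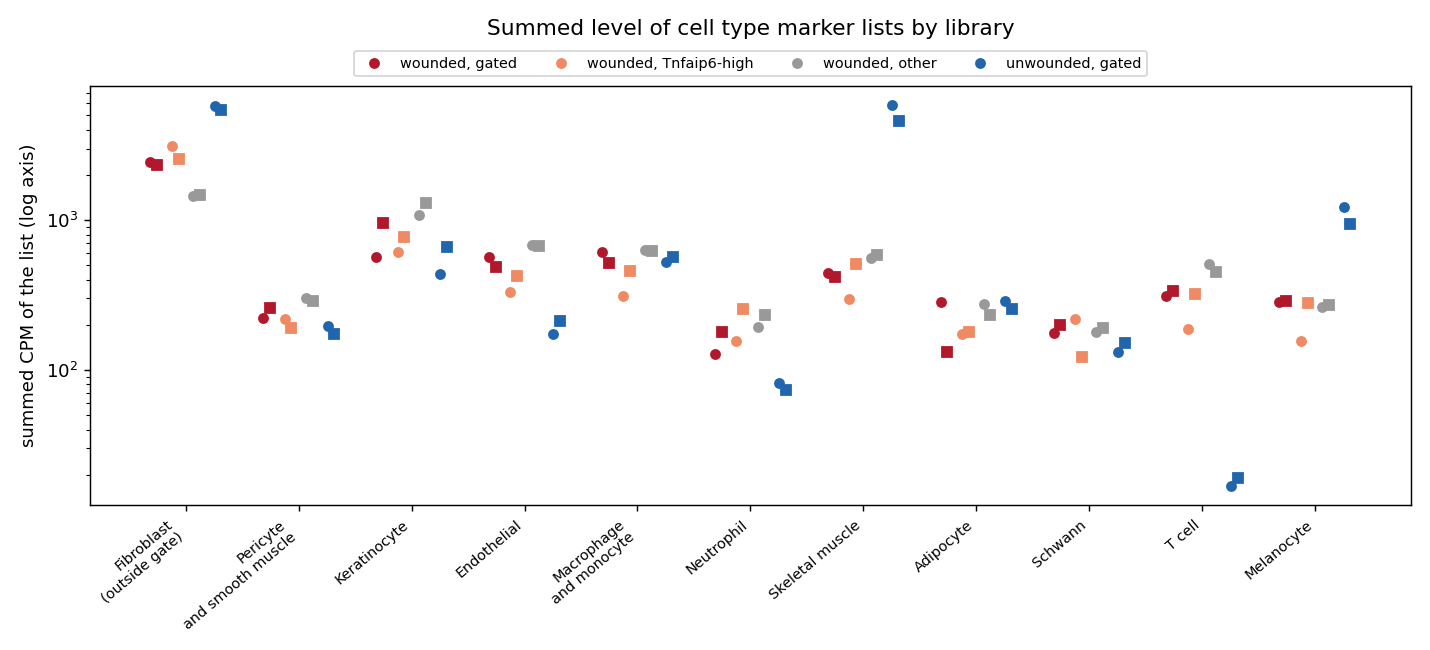
Summed CPM of each marker list (log axis) in gated, Tnfaip6-high and other wounded barcodes and in gated unwounded barcodes; circles are replicate 1 and squares replicate 2 of each group. Fibroblast markers outside the gate summed to 2431 and 2320 CPM in the members, above the 1456 and 1459 CPM of other wounded barcodes and below the 5798 and 5445 CPM of gated unwounded barcodes.

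The first comparison asked which genes outside the gate set the members apart from the other barcodes of the same wounds. UMIs were summed per library and group and tested over 14275 genes by quasi-likelihood in edgeR, with p-values adjusted by the Benjamini-Hochberg method and a threshold of 0.05. Of these, 408 differed (2.86%), 402 of them higher in the members (2.82%) and 6 lower (0.0420%), with a median log2 fold change of -0.01 over all genes tested. With the library as a block, since both profiles of a library come from the same mouse, 663 genes differed, 623 higher and 40 lower. Of the 402 genes that were higher, 246 (61.2%) exceeded the length-expected level at least 5 times in both libraries, against 6.78% of all genes tested. The calls and this level both use the members' counts, so the excess follows in part from the selection and is a description only.

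Cntfr, the ligand-binding receptor of ciliary neurotrophic factor (chr4:41657498-41697089, minus strand, GRCm38), was among the genes of largest difference. It stood at 1518 and 2413 CPM in the members, 1253 and 2311 CPM in Tnfaip6-high barcodes, 152 and 394 CPM in other wounded barcodes and 26.8 and 27.0 CPM in gated unwounded barcodes. The members' values did not overlap those of other wounded or unwounded barcodes, and overlapped those of Tnfaip6-high barcodes. The log2 fold change of members over other wounded barcodes was 2.97 ± 0.32 (SE, 2 libraries a group, edgeR adjusted p = 5.15e-05). At 150 UMIs per barcode, 12.3% and 17.5% of members held a Cntfr UMI (17.2% without thinning in replicate 1), against 1.59% and 3.79% of other wounded barcodes and 0.409% and 0.402% of gated unwounded barcodes.

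Tgfbr3, or betaglycan, a co-receptor that presents transforming growth factor beta (chr5:107106570-107289629, minus strand), was also among the genes that differed. It reached 4174 and 3970 CPM in the members, 7363 and 5679 CPM in Tnfaip6-high barcodes, 759 and 998 CPM in other wounded barcodes and 954 and 898 CPM in gated unwounded barcodes. The members lay above other wounded barcodes by 2.36 ± 0.16 on the log2 scale (edgeR adjusted p = 1.28e-06). A Tgfbr3 UMI was held by 46.4% and 39.0% of members at 150 UMIs, and by 10.2% and 11.5% of other wounded barcodes. Shares of Ptprc, a leukocyte gene, did not follow this pattern: at 150 UMIs they were 1.61% and 1.79% in the members and 1.72% and 1.59% in other wounded barcodes.

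Fgf23, a hormone best known from bone for lowering phosphate (chr6:127072902-127081408, plus strand), stood at 216 and 258 CPM in the members and at 27.1 and 47.0 CPM in other wounded barcodes. Tnfaip6-high barcodes held 580 and 345 CPM, and no Fgf23 UMI was found in the gated unwounded barcodes of either library. Members exceeded other wounded barcodes by 2.76 ± 0.24 (log2, edgeR adjusted p = 6.71e-06), and their mean level was at least 1176-fold that of the gated unwounded barcodes, with the floor set at 3 counts over that group. Its levels in the members were 62.6 and 78.3 times the length-expected level.

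**Figure D2:**
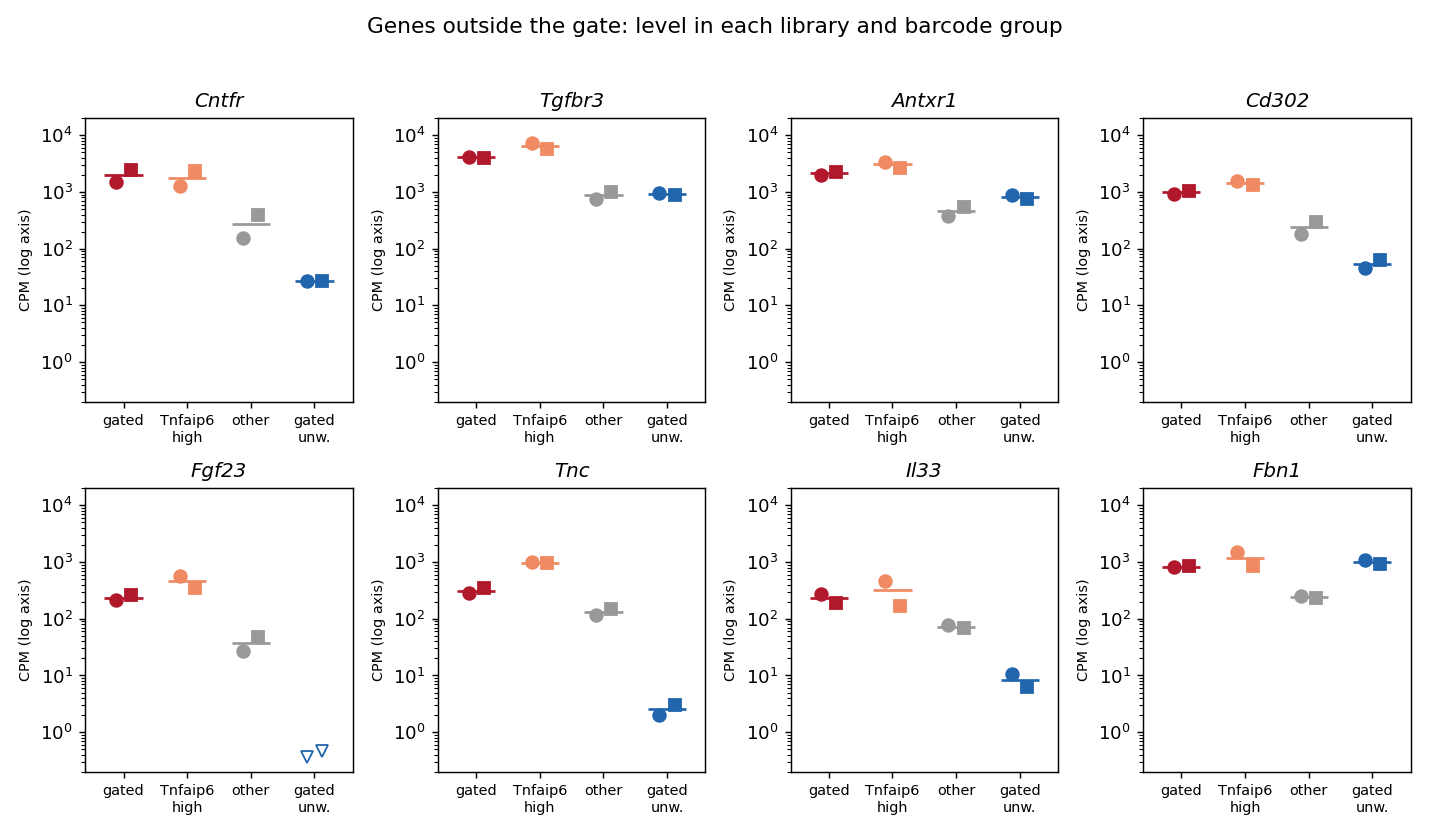
CPM (log axis) of 8 genes outside the gate in gated, Tnfaip6-high and other wounded barcodes and in gated unwounded (unw.) barcodes; circles are replicate 1, squares replicate 2, lines the mean of 2 libraries, and open triangles a count of 0 drawn at its limit of 3 counts. The members' Cntfr values of 1518 and 2413 CPM lie far above the 26.8 and 27.0 CPM of gated unwounded barcodes, whereas their Fbn1 values of 803 and 837 CPM lie below 1073 and 934 CPM.

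Because Fgf23 was at 0 in intact skin and Tnc was the single gene that edgeR called between the members and Tnfaip6-high barcodes, the RefSeq promoter windows of these genes (300 bases around the annotated start, GRCm38.p6) are shown. Capitals mark the letters TATAAA, a core promoter motif.
Fgf23, chr6:127072652-127072951, plus strand: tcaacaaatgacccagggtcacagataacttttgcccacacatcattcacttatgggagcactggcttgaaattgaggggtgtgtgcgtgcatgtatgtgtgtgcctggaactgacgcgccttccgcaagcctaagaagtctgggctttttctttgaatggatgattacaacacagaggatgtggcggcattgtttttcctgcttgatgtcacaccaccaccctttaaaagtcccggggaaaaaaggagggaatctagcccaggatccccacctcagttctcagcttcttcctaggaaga
Tnc, chr4:64046966-64047265, minus strand: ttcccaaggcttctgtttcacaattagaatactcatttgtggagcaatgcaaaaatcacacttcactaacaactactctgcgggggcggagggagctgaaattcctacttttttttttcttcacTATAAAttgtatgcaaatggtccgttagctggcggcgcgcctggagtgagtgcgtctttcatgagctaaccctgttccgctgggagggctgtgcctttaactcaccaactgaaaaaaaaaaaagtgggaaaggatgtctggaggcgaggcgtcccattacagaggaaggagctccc
Each window was searched on both strands for the core promoter motif, for the AP-1 motif, spelled TGANTCA with N for any base, and for a kappaB motif, given here by its name alone. The Tnc window held 1 core promoter motif, and the Fgf23 window held none of the 3 motifs. Of all 32851 windows, 13.6% held the core promoter motif, 7.81% the AP-1 motif and 0.411% the kappaB motif. Counted by 1 window per gene, the shares of 27025 genes were 14.2%, 7.93% and 0.385% in that order. Of the 311 genes higher in the members that had a window, 28 held the core promoter motif, 16 (5.14%) the AP-1 motif and 0 the kappaB motif. A match is a string of letters and says nothing about binding.

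Other receptors and membrane proteins were also higher in the members than in other wounded barcodes. Antxr1, a collagen-binding receptor of anthrax toxin, stood at 2016 and 2222 CPM in the members, against 376 and 542 CPM (log2 2.35 ± 0.17, edgeR adjusted p = 1.73e-06). Cd302, a C-type lectin receptor, stood at 935 and 1027 CPM, against 182 and 297 CPM (log2 2.16 ± 0.19). Mrc2, an endocytic collagen receptor, stood at 807 and 628 CPM, against 215 and 188 CPM (log2 1.98 ± 0.14). In each of these genes both members' libraries exceeded both other profiles. Adgra2, an adhesion G protein-coupled receptor, and Il1r1, the signalling receptor of interleukin 1, were higher by 2.37 ± 0.20 and 1.71 ± 0.17 on the log2 scale (Adgra2 first). St6galnac5, a sialyltransferase, was higher by 2.43 ± 0.22, and Casp4, the inflammatory caspase that senses intracellular lipopolysaccharide, by 1.46 ± 0.17. Tnfsf11, the cytokine RANKL, was higher by 1.74 ± 0.32 at only 12 and 24 UMIs in the members. Nat8f7 had the largest fold change (3.57 ± 0.28, from 185 and 139 CPM in the members, against 9.52 and 17.3 CPM), but it belongs to a family of near-identical acetyltransferase genes, so its reads may be shared with them. Nlgn2, a neuroligin adhesion protein, was higher by 2.62 ± 0.43 at 7 and 43 UMIs in the members.

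The 4 fibroblast markers outside the gate that were higher in the members were Fbn1, Fbln2, Col5a1 and Col5a2. Matrix lists within the wounds are read against 2.82% of all tested genes higher and 0.0420% lower. A lack of lower genes in a list therefore says little. The 17 tested markers' median log2 fold change was 0.45, against -0.01 over all genes, and 13 of the 17 were positive. Fbn1, the microfibril protein fibrillin 1, stood at 803 and 837 CPM in the members, against 248 and 235 CPM in other wounded barcodes (log2 1.93 ± 0.12, edgeR adjusted p = 1.28e-06). Col5a2, a chain of the collagen that limits fibril width, stood at 282 and 294 CPM, against 143 and 138 CPM (log2 1.20 ± 0.14). Lama2, a laminin chain of muscle and stromal basement membranes, was not set apart, with 454 and 402 CPM in the members, against 429 and 401 CPM. Tnxb, a tenascin that binds collagen, and Adam33, a membrane protease of mesenchymal cells, were higher by 2.02 ± 0.19 and 2.36 ± 0.21. Of 12 tested proteases and inhibitors, Mmp2, Adam12 and Adamts12 were higher and none lower, and Mmp2, a gelatinase, stood at 154 and 116 CPM, against 33.7 and 45.0 CPM (log2 1.84 ± 0.24). Of 14 tested myofibroblast and provisional matrix genes, Tnc and Loxl2 were higher and none lower. Tnc, the provisional matrix glycoprotein tenascin C, stood at 287 and 342 CPM, against 116 and 150 CPM (log2 1.39 ± 0.17). Loxl2, a collagen crosslinking oxidase, rested on 14 and 8 UMIs. Acta2, the actin of contractile myofibroblasts, had 26.5 and 12.9 CPM in the members and 18.3 and 17.3 CPM in other wounded barcodes.

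Signalling lists are read against the 2.82% of all tested genes that were higher and the 0.0420% that were lower. In the list of transforming growth factor beta, fibroblast growth factor and insulin-like growth factor signals, 4 of 18 tested genes were higher (Tgfb3, Tgfbr3, Smad3 and Fgf23) and none lower. Among inflammatory mediators 2 of 12 were higher, the alarmin Il33 and the stromal chemokine Cxcl12. Il33 stood at 278 and 188 CPM in the members, against 76.2 and 69.6 CPM in other wounded barcodes (log2 1.79 ± 0.19, edgeR adjusted p = 4.71e-05). Cxcl5, a neutrophil-attracting chemokine, had 83.8 and 100.4 CPM in the members and 14.6 and 52.6 CPM in other wounded barcodes, and its difference did not pass (edgeR adjusted p = 0.130). Among NF-kappaB subunits and feedback genes Birc3, an inhibitor of apoptosis, was the single gene of 10 that was higher, and among immediate early factors Fosl2, an AP-1 subunit, was the single gene of 9. Pi16, a marker of adventitial fibroblasts, was the single gene of 12 subset markers. These lists' calls rested on few genes, and those of Cxcl12 and Loxl2 were lost in 5 of 11 alternatives, those of Pi16 and Fbln2 in 4 of 13, and those of Col5a1 and Malat1 in 3 of 13. None of 9 hyaluronan and proteoglycan genes, 13 genes of the platelet-derived growth factor pathway, 13 hypoxia and glycolysis genes or 5 cholesterol genes passed in either direction, with list medians of 0.26, 0.27, 0.15 and -0.36.

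Of the 6 genes that were lower in the members, 5 were named genes: Far2, a fatty acyl reductase of sebaceous lipid synthesis, Slco1a6, an organic anion transporter, Trim63, a ubiquitin ligase of muscle atrophy, Cdh8, a cadherin, and Sox6, a transcription factor of muscle and cartilage. Far2 stood at 75.0 and 154 CPM in the members, against 440 and 315 CPM in other wounded barcodes (log2 -1.44 ± 0.24, edgeR adjusted p = 0.0028). Trim63 stood at 106 and 147 CPM, against 231 and 344 CPM. Sox6 stood at 168 and 219 CPM, against 330 and 353 CPM (log2 -0.63 ± 0.16, edgeR adjusted p = 0.0479). Slco1a6, Cdh8 and Sox6 were below their length-expected level in the members. The call of Smad3 was lost in 9 alternatives, that of Sox6 in 7, those of Adamts12, Cdh8 and Slco1a6 in 6 each and that of Trim63 in 5, all without a change of sign. Malat1 itself was higher in the members (3931 and 7990 CPM, against 1163 and 2748 CPM; log2 1.76 ± 0.34), and among barcodes with a Malat1 UMI, a choice made after seeing the data, 181 genes differed, 159 higher and 22 lower, 161 of them shared with the 408. With one of the members' libraries left out, 218 genes (without replicate 1) and 223 genes (without replicate 2) differed.

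**Figure D3:**
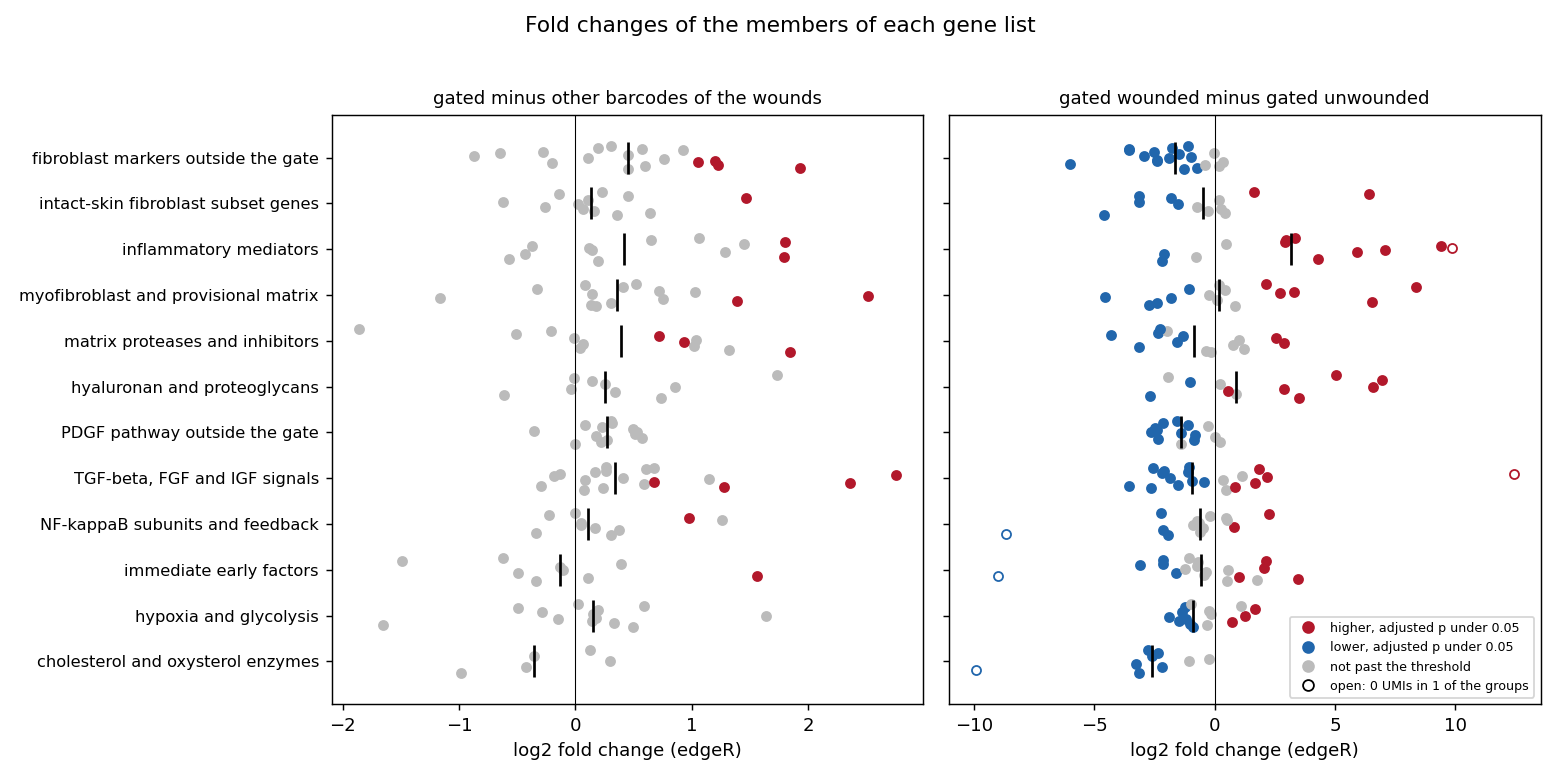
Log2 fold changes (edgeR) of the tested members of 12 gene lists, for members against other wounded barcodes (left) and against gated unwounded barcodes (right, on a wider axis); black bars are list medians and open points are genes with 0 UMIs in 1 of the groups, whose fitted values are not bounds. Fibroblast markers outside the gate have a median of 0.45 on the left and -1.63 on the right, and the inflammatory mediators 0.42 and 3.15.

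Levels by the number of gate genes held describe the rule's own scale and were not tested. Tgfbr3 stood at 542 and 734 CPM in barcodes with 0 gate genes, 1333 and 1861 CPM with 1, 3457 and 3464 CPM with 2, and 5314 and 5134 CPM with 3. With 4 or more, Tgfbr3 stood at 5326 and 4572 CPM. Il33 stood at 265 and 168 CPM with 2 gate genes and at 186 and 137 CPM with 3. With 4 or more, Il33 stood at 479 and 394 CPM, and its values at 3 rested on only 10 and 12 UMIs. Across the threshold itself, Cntfr had 219 CPM with 1 and 1334 CPM with 2 in replicate 1, and 857 CPM with 1 and 2238 CPM with 2 in replicate 2. Barcodes just inside the Tnfaip6 limit, with 1 UMI, held 338 and 455 CPM of Fgf23 (14 and 28 UMIs of Fgf23). Those just outside it, with 2 UMIs, held 335 and 443 CPM (7 and 17 UMIs of Fgf23). Those with 3 or more Tnfaip6 UMIs held 699 and 271 CPM (30 and 14 UMIs of Fgf23). Members without Tnfaip6 held 189 and 220 CPM.

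**Figure D4:**
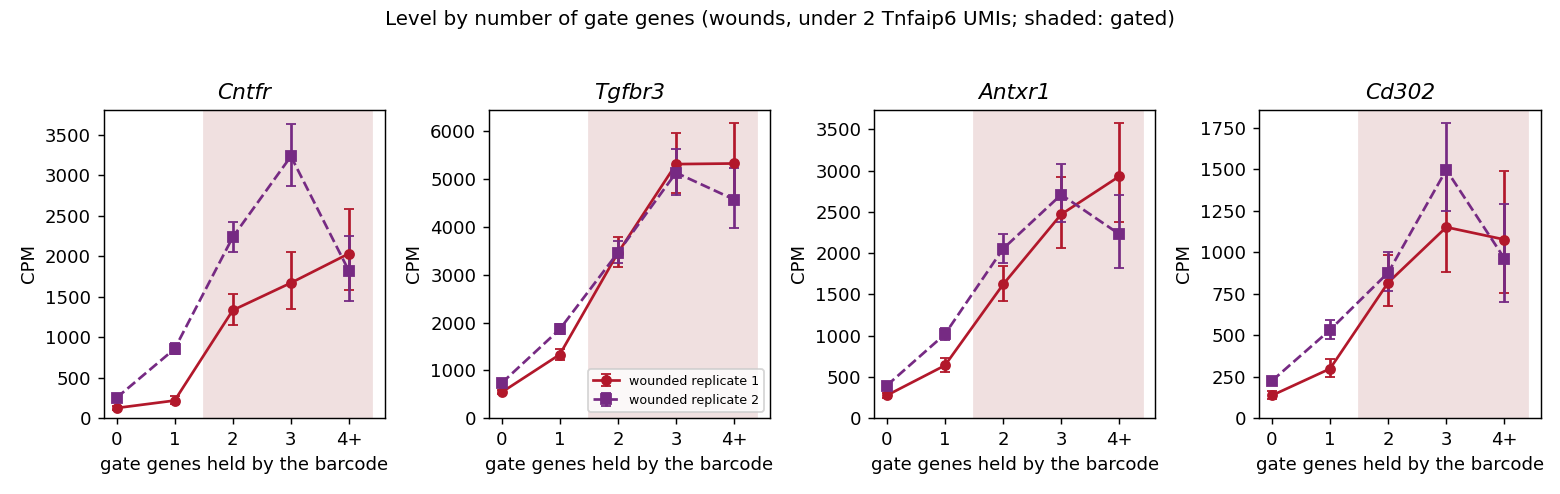
CPM of 4 genes against the number of gate genes held, in wounded barcodes with fewer than 2 Tnfaip6 UMIs (shaded: members); solid lines are replicate 1, dashed lines replicate 2, and bars are exact 95% Poisson intervals, which cover counting error only. Tgfbr3 climbs from 542 and 734 CPM at 0 gate genes to 5314 and 5134 CPM at 3, and stands at 5326 and 4572 CPM at 4 or more.

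Members also differed among themselves by depth. Cntfr stood at 3938 and 3809 CPM in members with under 200 UMIs, 2670 and 2745 CPM at 200 to 500 UMIs, and 370 and 899 CPM over 500 UMIs. Tgfbr3 stood at 1377 and 1698 CPM over 500 UMIs. In those deep members, receptor background would fill 67.1% and 59.5% of the UMIs, against 33.4% and 44.1% at 200 to 500 UMIs. Members with a Malat1 UMI held more Antxr1 (3029 and 2595 CPM) than members without (1029 and 1271 CPM).

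Against Tnfaip6-high barcodes, the nearest group of the wounds, few differences were detected. Of 3429 genes tested, 1 differed (0.0292%), and 269 had an unadjusted p under 0.05. The gene was Tnc, at 287 and 342 CPM in the members, against 987 and 978 CPM in Tnfaip6-high barcodes (log2 -1.68 ± 0.27, edgeR adjusted p = 1.89e-05). DESeq2 called 0 genes, with 43 at an unadjusted p under 0.05. The Tnc call was lost in 5 of 12 alternatives with log2 fold changes between -1.77 and -1.36, DESeq2 among them (adjusted p = 0.0839), as were the fits without either of the members' libraries, and 54 genes differed without the Tnfaip6-high profile of replicate 2. Tnfaip6-high barcodes were few (63831 and 89987 UMIs), so differences may have gone uncalled at this depth, and not only small ones. Fgf23 and Tgfbr3, whose levels given above were lower in the members in both libraries, were not called.

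The second comparison set the members against gated barcodes of intact skin, which, as said, are a mixture. Of 16406 genes tested with edgeR, 10500 differed (64.0%), 5176 higher (31.5%) and 5324 lower (32.5%), with a median log2 fold change of -0.23. DESeq2, which scales and filters differently, called 14297 genes, 61.2% of them higher, with a median of 1.17. Scaling factors were 1.22 and 1.19 for the members and 0.854 and 0.811 for unwounded barcodes, so fitted values lie below the ratio of CPM. Of the genes that were higher, 49.4% lay below 2 times the length-expected level in both libraries and 417 (8.06%) lay at least 5 times above it. At least 3 gate genes in both groups left 6930 differing genes, 39.8% of them higher, and counts less the length-expected counts left 7167, 37.2% of them higher.

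The genes highest over the length-expected level, with at least 20 UMIs, were Tgfbi, Cntfr, Zdhhc1, Cxcl5, Fcer1g, St3gal4, Dse and Cd302. Tgfbi, a collagen-binding matrix protein, stood at 1606 and 2330 CPM in the members, against 592 and 792 CPM in unwounded barcodes (log2 1.05 ± 0.21, edgeR adjusted p = 0.00057), but at 1589 and 2189 CPM in other wounded barcodes. Cntfr was higher by 5.74 ± 0.24 and Cd302 by 3.72 ± 0.20. Dse, an epimerase of dermatan sulfate, stood at 1866 and 1594 CPM, against 346 and 516 CPM (log2 1.53 ± 0.21), and St3gal4, a sialyltransferase, at 2475 and 2114 CPM, against 397 and 577 CPM (log2 1.76 ± 0.20). Zdhhc1, a palmitoyltransferase family member, was higher by 1.77 ± 0.19. Fcer1g, the signalling chain of myeloid Fc receptors, stood at 207 and 152 CPM, against 16.4 and 24.1 CPM, and at 228 and 214 CPM in other wounded barcodes.

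Of 20 inflammatory mediators listed, 12 had enough counts to be tested. Counts in either group alone could meet this filter. Cxcl2 and Cxcl5, near 0 in intact skin, met it through the members. The share of higher genes and the median of this list therefore follow in part from the filter. Among those 12, 8 were higher in the members (Il33, Ptgs2, Cxcl2, Cxcl3, Cxcl5, Ccl2, Ccl7 and Ereg) and 2 lower (Lif and Csf1). Over all tested genes 31.5% were higher and 32.5% lower. The median log2 fold change of the 12 was 3.15, against -0.23 over all genes. Il33 stood at 278 and 188 CPM, against 10.5 and 6.26 CPM (log2 4.28 ± 0.28, edgeR adjusted p = 1.79e-08), at 19.2 and 13.7 times the length-expected level. Cxcl5 had 19 and 39 UMIs in the members, against 0 and 1 in unwounded barcodes, and lay 91.1 and 115 times above the length-expected level. Cxcl2 and Ccl7, which draw neutrophils and monocytes, stood at 30.9 and 51.5 CPM and at 44.1 and 103 CPM in the members, against 0.240 and 0.153 CPM and 9.82 and 4.73 CPM. None of these chemokines passed between members and other wounded barcodes. Neutrophil markers moved with this list: of 3 tested, S100a9 and Csf3r were higher and Il1r2 lower (median log2 fold change 2.94), and the 8 markers of the list, 3 and 1 of them at 0 in the members, summed to 128 and 178 CPM in the members, 192 and 232 CPM in other wounded barcodes and 81.7 and 73.2 CPM in gated unwounded barcodes. No member of either library held 2 of these markers, and their part in the result was not tested.

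Matrix lists are read against 31.5% of all tested genes higher and 32.5% lower. Of 18 fibroblast markers outside the gate none was higher and 14 were lower, with a median of -1.63. Prrx1, a mesenchymal transcription factor, stood at 101 and 79.8 CPM in the members, against 773 and 768 CPM (log2 -3.58 ± 0.21, edgeR adjusted p = 5.095e-09), and Col5a2 at 282 and 294 CPM, against 1198 and 1017 CPM (log2 -2.40 ± 0.18). Fbn1 fell by 0.75 on the log2 scale, a call lost in 2 of 14 alternatives. Of 15 myofibroblast and provisional matrix genes 5 were higher, among them Tnc, Thbs1, Spp1 and Plod2, and 5 lower (Postn, Fn1, Cthrc1, Lox and Itgav), which is near the share over all genes in each direction. Tnc stood at 287 and 342 CPM, against 2.04 and 3.05 CPM (log2 6.51 ± 0.26), and Spp1, the phosphoprotein osteopontin, had 21 and 24 UMIs, against 1 and 1. Of 14 proteases and inhibitors 2 were higher and 6 lower. Adam12, a membrane protease, stood at 499 and 451 CPM, against 53.5 and 38.8 CPM (log2 2.89 ± 0.19), and Mmp14, a collagenase anchored in the membrane, at 35.3 and 59.2 CPM, against 314 and 333 CPM (log2 -3.15 ± 0.24). Of 11 hyaluronan and proteoglycan genes 6 were higher and 2 lower. Ptx3, a pentraxin of the hyaluronan matrix, had 4 and 24 UMIs, against 6 and 8 in a far deeper group, while Cemip, a hyaluronan-degrading protein, was at 2.97 and 1.56 times its length-expected level, which is close to background.

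Growth factor genes were mostly lower. The growth factor and subset lists are read against 31.5% of all tested genes higher and 32.5% lower. In none of these lists was the share of higher genes above that over all genes. Of 14 genes of the platelet-derived growth factor pathway none was higher and 10 were lower (median -1.42), among them the ligand Pdgfd at 181 and 167 CPM, against 610 and 664 CPM, and the kinase subunit Pik3r1 at 83.8 and 144 CPM, against 546 and 530 CPM. In the transforming growth factor beta, fibroblast and insulin-like growth factor list 5 of 19 were higher (Tgfb3, Tgfbr3, Fgf10, Fgf23 and Hgf) and 11 lower. Tgfbr3 was higher by 1.67 ± 0.17, whereas Tgfbr1, the kinase receptor, stood at 22.1 and 30.9 CPM, against 234 and 234 CPM (log2 -3.54 ± 0.26). Among subset genes of intact fibroblasts 2 of 12 were higher and 5 lower, with Cdh4, a cadherin, at 282 and 286 CPM, against 1739 and 1941 CPM. Corin, a protease of the dermal papilla, was higher by 6.41 ± 0.40 but stood at only 1.38 and 1.43 times its length-expected level.

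Regulatory and metabolic lists are read against the same 31.5% higher and 32.5% lower. NF-kappaB subunits and feedback genes were 2 higher and 4 lower of 14, with Nfkb1 at 61.8 and 92.7 CPM, against 247 and 205 CPM, and the adhesion molecule Icam1 at 17.6 and 12.9 CPM, against 52.6 and 48.7 CPM. Immediate early factors were 4 higher and 5 lower of 18; Fosl2 was higher by 1.02 ± 0.21, and Klf4 had 0 and 5 UMIs, against 366 and 378. Hypoxia and glycolysis genes were 3 higher and 7 lower of 15, with the enzymes Aldoa at 22.1 and 30.9 CPM, against 67.0 and 81.4 CPM, and Pfkfb4 at 26.5 and 33.5 CPM, against 72.5 and 53.9 CPM. Of 9 cholesterol and oxysterol genes none was higher and 7 were lower, among them the sterol transporter Abca1 (57.4 and 64.4 CPM, against 326 and 286 CPM) and the sterol regulator Srebf2 (26.5 and 30.9 CPM, against 119 and 98.2 CPM). All 8 skeletal muscle markers were lower, and 3 of 3 tested T cell markers and 5 of 8 endothelial markers were higher, at medians of 0.857 and 1.21 times and of 1.23 and 1.89 times the length-expected level over each whole list.

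The largest falls were of Krt77, a suprabasal keratin, Npepl1, an aminopeptidase, the imprinted non-coding RNAs Meg3 and Rian, Zranb2, a splicing protein, and Mfap4, a microfibril protein. Meg3 had 10 and 18 UMIs in the members (44.1 and 46.4 CPM), against 38662 and 30161 UMIs in unwounded barcodes (4631 and 4606 CPM), a log2 fold change of -7.12 ± 0.26 (edgeR adjusted p = 1.57e-10). Rian stood at 35.3 and 25.8 CPM, against 1038 and 1510 CPM. Krt77 and Npepl1 had no UMI in the members and were at least 12.7-fold and 12.1-fold lower, with the floor at 3 counts over both libraries. Malat1 was lower by 4.35 ± 0.35 on the log2 scale (log2 fold change -4.35), at 3931 and 7990 CPM in the members, against 93845 and 83536 CPM.

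The genes higher in the members than in other wounded barcodes did not all differ from intact skin in the same direction. Against Tnfaip6-high barcodes, 0 of 3429 tested genes were higher in the members. Of these 402 genes, 150 were also higher than in gated unwounded barcodes, 154 were lower and 98 were not called, and both comparisons share the members' libraries. Over all genes tested against unwounded barcodes, 31.5% were higher and 32.5% lower, so a split in both directions is not particular to the 402. Cntfr, Cd302, Il33 and Tnc were higher in both. Fbn1, Col5a1, Col5a2, Adam33, Tnxb and Pi16 were higher than in other wounded barcodes and lower than in gated unwounded barcodes. Adam33 stood at 194 and 214 CPM in the members, 35.1 and 50.3 CPM in other wounded barcodes and 533 and 533 CPM in gated unwounded barcodes.

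The gap between gated and other barcodes was also compared between wounded and unwounded skin with an interaction term in edgeR. Of 16139 genes, 659 passed at an adjusted p under 0.05 (4.08%), with 10 of them higher (0.0620%) and 649 lower (4.02%) in the wounds. The count and its split depended on scaling: with RLE scaling 130 genes passed, 43 higher and 87 lower, and DESeq2 called 269 higher and 231 lower.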

How the data were processed

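Single-nucleus libraries of 4 mice were deposited by the authors as UMI counts per gene and barcode, made with Cell Ranger 5.0.1 on GRCm38 per the submitters' processing notes. For intron counting and empty-droplet calling, the setting is not given in the sources used here. Barcodes under 100 genes or over 5% mitochondrial UMIs were dropped, and the rest were gated and summed per library (Python 3.11.15). No doublet caller was run. Sums were tested with edgeR 4.0.16 (filterByExpr, TMM scaling, quasi-likelihood test, Benjamini-Hochberg adjustment without the gate genes and Tnfaip6, threshold 0.05), with DESeq2 1.42.0 as an alternative, and the fits were tested on simulated data. Totals were 226654 and 388366 UMIs in the members, so intervals and floors, which cover counting error only, are wide. The labels name 1 library per mouse, with 2 mice a group. Same-numbered wounded and unwounded libraries come from different mice, whereas profiles within a wounded library share a mouse, which is where the pairing in those comparisons comes from. Length-expected levels scale the UMIs per kb of 1468 olfactory and vomeronasal receptor genes by gene length (GENCODE vM21, 32235 of 32285 genes matched).

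Members and lists were chosen with earlier results of these data known. Genes named by rule were the 8 highest over the length-expected level among those that rose against unwounded barcodes with at least 20 UMIs, the 6 of largest fall with at least 50 CPM, up to 2 per list by p, and up to 5 each way in the comparisons within wounds. Tgfbr3, Antxr1, Cd302, Mrc2, Adgra2, Adam33, Tnxb, St6galnac5, Il1r1, Casp4, Tnfsf11, Malat1, Cxcl2, Ccl7 and list members named within wounds were chosen after their values were seen.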

Additional observations from a re-analysis of the deposited data

Results flagged for a closer look

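For 6 named genes the gap between gated and other barcodes differed between wounded and unwounded skin, by edgeR's test of the interaction with Benjamini-Hochberg adjustment over 16139 genes, of which 659 passed (4.08%). For Cd302 the interaction was positive, at 1.80 ± 0.41 on the log2 scale (SE, edgeR adjusted p = 0.0182). Cd302 stood at 935 and 1027 CPM in gated and 182 and 297 CPM in other wounded barcodes. In unwounded skin it stood at 45.5 and 62.9 CPM in gated and 60.2 and 83.9 CPM in other barcodes. By CPM, gated barcodes thus lay above other barcodes in wounds and below them in unwounded skin. The fit's scaling factors in unwounded skin were 0.679 and 0.628 for gated and 1.22 and 1.07 for other barcodes. The gap was narrower in wounds for Cdh4 (-2.31, edgeR adjusted p = 0.00471), Pdgfd (-2.04, adjusted p = 0.00286), Tgfbr1 (-1.73, adjusted p = 0.0126), Col5a1 (-1.59, adjusted p = 0.00981) and Col5a2 (-1.12, adjusted p = 0.0499). The median interaction over all genes tested was -0.68, and it was -0.13 with RLE scaling, under which 130 genes passed. Cd302 lost its call without unwounded replicate 2, Cdh4 and Pdgfd lost theirs among barcodes with 200 to 500 UMIs, and Tgfbr1, Col5a1 and Col5a2 lost theirs in 6 alternatives each.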

How the results depend on the processing

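Against other wounded barcodes (408 genes), the replicate block gave 663 genes, barcodes with a Malat1 UMI (chosen after seeing the data) 181, and leaving out 1 profile 218 to 445. Against unwounded barcodes (10500 genes), at least 3 gate genes gave 6930, leaving out 1 library 7004 to 8362, and no filter 15407. The replicate block there gave 10402, and same-numbered libraries of different mice deviated together with a correlation of 0.0615 over 11159 genes. Against Tnfaip6-high barcodes (1 gene), DESeq2 gave 0, leaving out the 5% of barcodes with most UMIs 0, barcodes with 200 to 500 UMIs 0, and leaving out 1 profile 0 to 54. For the interaction (659 genes), RLE scaling gave 130, no filter 1994, the replicate block 1458, at least 3 gate genes 363, leaving out the 5% of barcodes with most UMIs 254, barcodes with 200 to 500 UMIs 30, and leaving out 1 library 133 to 1332. Col5a2 turned to 0.52 in that interaction among barcodes with 200 to 500 UMIs. The cause was not tested. Of 614 results of named genes against unwounded barcodes 6 lost their call, and of 474 against other wounded barcodes 73 did, none with a change of sign. Depth limits genes near 13.2 and 7.72 CPM, the floors of the members.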
